A study of Mus musculus with 2 samples.

Results

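The 40 genes described here, called mitosis genes, encode proteins that drive, build or end mitosis: the mitotic cyclins and the regulators of the kinase CDK1, the mitotic kinases, the kinetochore, the spindle, the machinery of exit and cytokinesis, and the chromosome proteins Ki-67 and topoisomerase II alpha. They were taken by name from the features shared by both libraries, and all 40 were found among 32285 genes. The cells were cultured mouse THY-1+ germ cells, which hold spermatogonial stem cells (SSC) and their progeny. They grew on STO feeders, which are fibroblasts of the mouse, and single cells were captured in droplets for RNA sequencing after 48 h with 20 ng/ml FGF9 (FGF9‐treated) or with no FGF (control). Both groups shared the same origin, C57 LacZ pups in the days after birth, and the same growth medium with GDNF, GFRA1 and FGF2 before the switch. Their culture passages are given alike in the sample characteristics, but the source name gives a slightly wider range for the FGF9‐treated sample. For the treatment itself the study describes a switch to medium with FGF9 or with albumin, and its control cells as kept without growth factors. There was 1 library per treatment, made from pooled cells that the study derived from several mice, and the treatment cannot be told apart from the library. Intervals below are 95% intervals that cover counting error only and treat UMIs (unique molecular identifiers, the counted transcripts) as independent draws. They hold neither the variation between cultures nor that between cells, and no p-value is given.

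As background, a cell enters mitosis when cyclin B binds CDK1 and the CDC25 phosphatases strip the inhibitory phosphates from this kinase. Kinetochores then attach chromosomes to the spindle, the checkpoint kinases hold the cell until all are attached, and CDC20 with the anaphase-promoting complex destroys cyclin B to let the cell exit and divide. Transcripts of most of these genes build up late in the cycle, when the MuvB complex with B-MYB and FOXM1 acts on their promoters. It acts through short elements called CHR, often beside CCAAT boxes bound by NF-Y. In the testis the spermatogonia that multiply by mitosis include the SSC and the progenitors that descend from them, and the same genes are shared by every dividing cell type, among them fibroblasts.

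Cells were kept with at least 2000 genes, at most 20% mitochondrial UMIs and under 40 UMIs of Vim plus S100a6, which removed 63 feeder-rich barcodes from the FGF9‐treated library and 31 from the control. This left 4537 of 5959 barcodes with 67068085 UMIs in the FGF9‐treated library and 4157 of 5312 barcodes with 67689739 UMIs in the control. The median cell held 13067 UMIs and 4256 genes in FGF9‐treated cells, against 14824 UMIs and 4615 genes in control cells. As a check of the cell type, 10 germ cell markers were read. Dazl, an RNA-binding protein of germ cells, had a UMI in 100% of kept cells of both libraries, and Ddx4 in 98% of FGF9‐treated and 98.9% of control cells. The others had smaller shares, from 48.8% (Gfra1) to 93.0% (Tex101) in FGF9‐treated and from 19.6% (Gfra1) to 96.9% (Mael) in control cells. Gfra1 and Ret were found in more FGF9‐treated than control cells, and the rest of these others in fewer. Dazl was also found in 50.8% of FGF9‐treated and 41.9% of control feeder-rich barcodes. Of 10 feeder fibroblast markers, none was at 0 in the kept cells, and the list summed to 203 CPM in FGF9‐treated and 168 CPM in control cells. Of the 5 that reached 10 CPM in either library, Vim (18.8% of FGF9‐treated and 4.67% of control cells), S100a6 (16.9% and 10.0%) and Lgals1 (73.7% and 69.8%) were higher in FGF9‐treated cells, whereas Col1a1 (14.5% and 26.1%) and Timp2 (12.8% and 36.4%) were lower. Vim and S100a6 also set the limit on feeder barcodes. The part of these transcripts in the results below was not tested. The libraries shared 11 barcodes, of which 10 were kept in both, and leaving them out gave a log2 ratio of 0.37 for the summed members, the value reached with them.

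Mitosis genes as a group had more UMIs in FGF9‐treated cells. Their summed level was 5239 CPM (UMIs per 1000000 of the library) in the FGF9‐treated library and 4047 CPM in the control, a log2 ratio of 0.37 (0.37 to 0.38). Ratios of single genes ran from -0.46 for Cdc25c to 1.92 for Mki67, with a median of 0.35 over the 39 genes that reached 10 CPM in either library, called measured here. The median over all 8877 measured genes was -0.03. A log2 ratio of at least 0.5 was reached by 17 of the 39 genes, against 5.78% of all measured genes. None of the 39 stood at -0.5 or lower, against 5.95% of all measured genes. The interval lay above 0 for 33 of the 39 (32.8% of all measured genes) and below 0 for 3, which were Cdc25c, Bub1b and Cdca8 (43.1% of all measured genes). The sum gives weight to deep cells: as a mean over cells of each cell's own CPM, its log2 ratio was 0.27, and 13 genes then reached 0.5.

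**Figure D1:**
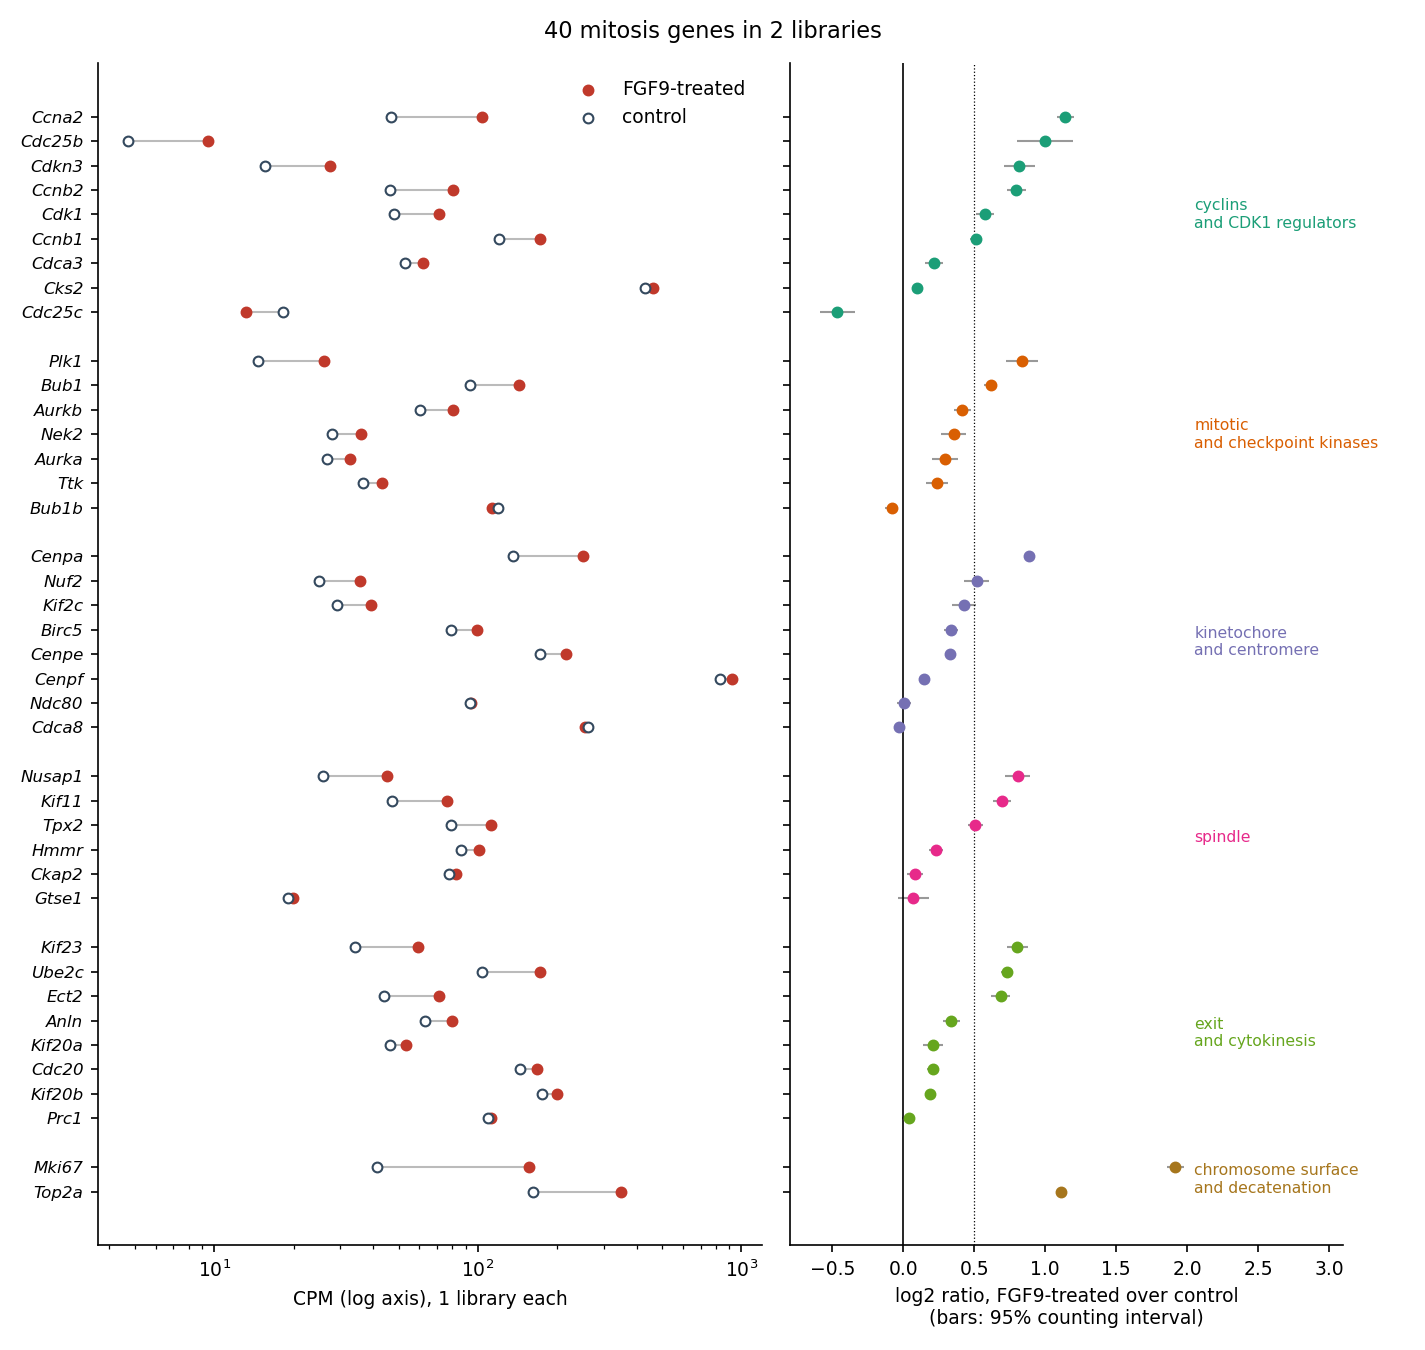
Level of each of the 40 genes in CPM on a log axis (left, filled points FGF9‐treated, open points control, 1 library each) and its log2 ratio with the 95% counting interval (right, dotted line at 0.5), grouped by role. Mki67 lies farthest to the right at 1.92, Cdc25c farthest to the left at -0.46, and 17 measured genes lie at or past the dotted line.

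Among the cyclins and CDK1 regulators, the summed log2 ratio was 0.35 (0.33 to 0.37), and 5 of 8 measured genes reached 0.5. Ccna2, the cyclin of S phase and of the entry into mitosis, stood at 104 CPM in FGF9‐treated cells and 46.9 CPM in control cells, with a log2 ratio of 1.14 (1.08 to 1.20). Cdkn3, a phosphatase that acts on cyclin-dependent kinases, stood at 27.5 CPM in FGF9‐treated and 15.6 CPM in control cells (0.82, 0.71 to 0.93). These are the highest ratios among the measured genes of the group, and both cyclin B genes, Ccnb2 (0.80) and Ccnb1 (0.51), went the same way. Cks2, a small subunit that binds CDK1, differed little, with 460 CPM in FGF9‐treated and 431 CPM in control cells (0.10, 0.07 to 0.12). Cdc25c, one of the phosphatases that activate CDK1, was lower, at 13.2 CPM in FGF9‐treated and 18.1 CPM in control cells (-0.46, -0.59 to -0.34). Its relative Cdc25b went the other way but was the only member under 10 CPM in both libraries, with 632 UMIs in FGF9‐treated and 319 UMIs in control cells.

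The mitotic and checkpoint kinases had a summed log2 ratio of 0.32 (0.30 to 0.35), with 2 of 7 at 0.5 or more. Plk1, the polo kinase that acts from mitotic entry to cytokinesis, stood at 26.1 CPM in FGF9‐treated and 14.6 CPM in control cells (0.83, 0.72 to 0.95). Bub1, a checkpoint kinase at the kinetochore, stood at 143 CPM in FGF9‐treated and 93.2 CPM in control cells (0.62, 0.57 to 0.66). Its partner in the checkpoint Bub1b, which encodes BUBR1, did not move with it: 113 CPM in FGF9‐treated and 120 CPM in control cells (-0.08, -0.13 to -0.04). Ttk, the kinase MPS1 at the head of the checkpoint, had 43.1 CPM in FGF9‐treated and 36.7 CPM in control cells (0.23, 0.16 to 0.31). Aurka, Aurkb and Nek2 lay between these, at 0.30 to 0.42.

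The kinetochore and centromere genes had the lowest summed ratio of the groups, 0.23 (0.22 to 0.24), and 2 of 8 reached 0.5. Cenpa, the histone H3 variant that marks the centromere, stood at 250.1 CPM in FGF9‐treated and 135 CPM in control cells (0.89, 0.85 to 0.92). Nuf2, which joins NDC80 in the complex that grips microtubules, stood at 35.6 CPM in FGF9‐treated and 24.9 CPM in control cells (0.52, 0.43 to 0.61). Its partner Ndc80 was level between the libraries, with 93.9 CPM in FGF9‐treated and 93.6 CPM in control cells (0.00, -0.05 to 0.05). Cdca8, the borealin subunit of the chromosomal passenger complex, stood at 256 CPM in FGF9‐treated and 262 CPM in control cells (-0.03, -0.06 to -0.002), and with the TMM scaling of edgeR its ratio turned to 0.001. The sum of this group is weighted by Cenpf, a large kinetochore protein named here after its values were seen, which held 61632 of the 351390 member UMIs in FGF9‐treated and 56265 of the 273970 in control cells and had a ratio of 0.14 (0.13 to 0.16). Without Cenpf the sum over all members had a ratio of 0.43.

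The spindle genes had a summed ratio of 0.38 (0.36 to 0.41), with 3 of 6 at 0.5 or more. Nusap1, a protein that bundles spindle microtubules, stood at 45.1 CPM in FGF9‐treated and 25.8 CPM in control cells (0.81, 0.72 to 0.89). Kif11, the kinesin that pushes the spindle poles apart, stood at 76.4 CPM in FGF9‐treated and 47.2 CPM in control cells (0.69, 0.63 to 0.76). Ckap2, a spindle-associated protein, differed by 0.08 (0.03 to 0.14), with 82.6 CPM in FGF9‐treated and 77.9 CPM in control cells. Gtse1, a microtubule-binding protein of G2 and mitosis, had 20.0 CPM in FGF9‐treated and 19 CPM in control cells, with an interval that holds 0 (0.07, -0.04 to 0.18).

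The genes of exit and cytokinesis had a summed ratio of 0.34 (0.33 to 0.36), with 3 of 8 at 0.5 or more. Kif23, a kinesin of the central spindle, stood at 59.5 CPM in FGF9‐treated and 34.1 CPM in control cells (0.80, 0.73 to 0.88). Ube2c, the ubiquitin-conjugating enzyme of the anaphase-promoting complex, stood at 172 CPM in FGF9‐treated and 103 CPM in control cells (0.73, 0.69 to 0.78). Cytokinesis genes were not all higher: Prc1, which bundles the central spindle together with such kinesins, had 112 CPM in FGF9‐treated and 109 CPM in control cells (0.04, -0.01 to 0.08). Kif20b, another kinesin of cytokinesis, had 200.0 CPM in FGF9‐treated and 175 CPM in control cells (0.19, 0.16 to 0.23).

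The pair of chromosome proteins stood apart from the 5 other groups, with a summed ratio of 1.32 (1.29 to 1.35). Mki67 (ENSMUSG00000031004, chromosome 7, 135689784 to 135716361, minus strand, mm10) encodes Ki-67, which coats mitotic chromosomes and is the usual marker of cycling cells. It stood at 156 CPM in FGF9‐treated and 41.4 CPM in control cells (1.92, 1.86 to 1.98), at the 99.8 percentile of the ratios of measured genes. Top2a (ENSMUSG00000020914, chromosome 11, 98992943 to 99024189, minus strand) encodes the enzyme that untangles sister chromatids, and stood at 349 CPM in FGF9‐treated and 161 CPM in control cells (1.11, 1.08 to 1.15). Both reach beyond mitosis, since Ki-67 and topoisomerase II alpha are also made in S phase and G2. Without this pair, the summed ratio of the other 38 genes was 0.30.

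Promoter sequence was available for 35 of the 40 genes, as RefSeq windows from 250 bases before to 50 bases after the annotated start (GRCm38.p6). Windows were searched on both strands for CCAAT, for TTTGAA as the usual letters of the CHR, for its other form TTTAAA, and for TTCGAA, a rarer form. The CCAAT box was found in 28 of 35 (80%) member windows, against 39.0% of 17492 protein-coding genes, and TTTGAA in 25 of 35 (71.4%), against 16.5%. TTTAAA was found in 28.6% of member windows, against 12.1% of all, and TTCGAA in 11.4%, against 1.87%. CCAAT together with any of the 3 CHR forms was found in 26 of 35 member windows (74.3%) and in 11.0% of all promoters. Mki67 and Top2a, which had the highest log2 ratios among the genes with a window, Ccnb2 and Plk1, and the broadly detected Cenpf and Cks2, which differed little, are shown as the 150 bases before the start, with every CCAAT and CHR match on either strand in capitals.
Mki67 (chr7:135716380-135716529, minus strand): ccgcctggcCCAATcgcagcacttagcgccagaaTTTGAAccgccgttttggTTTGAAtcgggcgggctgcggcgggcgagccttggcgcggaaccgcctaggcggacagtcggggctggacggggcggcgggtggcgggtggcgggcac
Top2a (chr11:99024190-99024339, minus strand): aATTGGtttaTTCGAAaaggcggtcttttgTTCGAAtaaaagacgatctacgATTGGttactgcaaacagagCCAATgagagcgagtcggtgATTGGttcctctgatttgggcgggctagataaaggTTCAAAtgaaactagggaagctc
Ccnb2 (chr9:70421555-70421704, minus strand): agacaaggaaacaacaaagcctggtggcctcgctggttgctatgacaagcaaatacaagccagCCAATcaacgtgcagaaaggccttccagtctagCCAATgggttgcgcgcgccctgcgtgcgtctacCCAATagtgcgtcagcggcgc
Plk1 (chr7:122159285-122159434, plus strand): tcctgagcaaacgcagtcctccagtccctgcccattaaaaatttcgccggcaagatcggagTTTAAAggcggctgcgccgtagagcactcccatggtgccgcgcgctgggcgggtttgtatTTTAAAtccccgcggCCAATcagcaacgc
Cenpf (chr1:189688087-189688236, minus strand): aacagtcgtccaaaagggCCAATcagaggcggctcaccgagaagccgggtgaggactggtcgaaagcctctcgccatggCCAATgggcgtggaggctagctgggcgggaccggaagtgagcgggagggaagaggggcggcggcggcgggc
Cks2 (chr13:51645082-51645231, plus strand): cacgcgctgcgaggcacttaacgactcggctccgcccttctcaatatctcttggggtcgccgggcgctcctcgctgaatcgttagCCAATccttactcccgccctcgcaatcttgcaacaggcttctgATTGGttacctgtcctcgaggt
All 6 stretches hold CCAAT, written ATTGG where it lies on the other strand. The Ccnb2 and Cenpf stretches hold no CHR match, though both genes have one elsewhere in their window, and the window of Cks2 holds none. A match is a description of letters only.

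Other genes of the cell cycle differed to varying degrees. A list of 54 other mitosis genes had a summed ratio of 0.20 (0.19 to 0.21) and a median of 0.20, with 6 of 52 measured genes at 0.5 or more, 1 at -0.5 or lower, 34 intervals above 0 and 10 below. Highest were Fbxo5 (1.55), an inhibitor of the anaphase-promoting complex, Kif18b (0.68), a kinesin of the spindle, and Aspm (0.63), a spindle pole protein. Lowest were Pkmyt1 (-0.55), a kinase that holds CDK1 inactive, Lin37 (-0.35), a subunit of MuvB, and Espl1 (-0.30), the protease separase. The 28 replication genes had a summed ratio of 0.43 (0.42 to 0.44) and a median of 0.50, with 14 at 0.5 or more.

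The next question was whether more cells held each transcript or whether the cells that held it held more of it. Because FGF9‐treated cells were shallower, each cell was thinned to 5000 UMIs, which kept 4515 FGF9‐treated and 4141 control cells. The mean of a gene per thinned cell is then the share of cells with a UMI times the UMIs per such cell. The share was higher in FGF9‐treated cells for 29 of 40 genes, with intervals apart for 22, and lower for 11, with intervals apart for 6. This tally rests on equal depth: without thinning the share was higher in FGF9‐treated cells for 18 genes and lower for 22, among them Ccnb1 (62.4% of FGF9‐treated and 68.1% of control cells), Ube2c (60.3% and 64.4%) and Tpx2 (54.3% and 58.7%). UMIs per cell with a UMI were higher in FGF9‐treated cells for 35 of 40 and lower for 5. Tallies of shares and levels over all measured genes are not given, so these counts describe the members without a background. The median log2 ratio was 0.18 for the share and 0.11 for the level in positive cells, and the level part was the larger for 12 genes. So both parts differed between the libraries, and 8 genes had a smaller share of positive cells but a higher CPM in the FGF9‐treated library. Their share is from thinned cells, whereas the CPM sums all UMIs and gives weight to deep cells. In thinned cells the mean was lower in the FGF9‐treated library for Prc1 and Ndc80 (log2 ratios of -0.056 and -0.035). It was nearly level for Cks2 (0.0025) and higher for the rest of the 8.

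For Mki67 the larger part was the share, with log2 ratios of 1.41 for the share and 0.49 for the level. Transcripts spread at random over all cells (Poisson) would have given 1.61 and 0.30 at the same means. The split therefore cannot tell more expressing cells from a higher level in every cell. Mki67 had a UMI in 25.5% (24.2 to 26.8) of FGF9‐treated and 9.56% (8.68 to 10.5) of control thinned cells, with 2.37 and 1.69 UMIs per positive cell. Without thinning the shares were 37.8% and 20.0%. For Top2a the larger part was the level, with 0.25 for the share and 0.77 for the level, against 0.59 and 0.43 with a random spread. Top2a was found in 49.6% (48.1 to 51.1) of FGF9‐treated and 41.6% (40.1 to 43.1) of control cells, with 2.88 and 1.69 UMIs per positive cell. The order of its shares rests on equal depth, as they were 69.2% in FGF9‐treated and 71.3% in control cells without thinning. Cells with at least 5 Top2a UMIs were 10.4% of FGF9‐treated and 2.13% of control cells. Ccna2 was found in 27.5% and 15.8%, with 1.57 and 1.27 UMIs per positive cell.

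For 8 genes the share was lower and the level in positive cells higher in the FGF9‐treated library, among them the most broadly detected, Cenpf and Cks2. The intervals of the share were apart for Cenpf, Cks2 and Prc1 and overlapped for Cdc20, Ndc80, Kif20a, Hmmr and Gtse1. Cenpf was found in fewer FGF9‐treated cells, 85.6% (84.6 to 86.6) against 90.4% (89.5 to 91.3) of control cells, with more UMIs in those that had it, 4.76 against 4.33. Cks2 behaved alike, with 75.8% and 81.5% of cells and 2.76 and 2.57 UMIs per positive cell, and so did Prc1, with 31.0% and 34.7% of cells and 1.53 and 1.42 UMIs. Other broadly detected genes did not share this pattern: Cdca8 was lower in share, at 65.4% of FGF9‐treated and 68.6% of control cells, with a log2 ratio of the level of -0.0071, and Cenpa was higher in both, with 56.9% and 41.9% of cells. Cdc25c was found in 5.49% of FGF9‐treated and 8.67% of control cells, with 1.05 and 1.07 UMIs per positive cell. Its log2 ratio of the share was -0.66, and a random spread at its low means gives -0.66 too.

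A positive cell must hold at least 1 UMI, so its level rises somewhat with the mean even where transcripts fall evenly over cells. With an even (Poisson) spread, the median log2 ratio of the level in positive cells would have been 0.04 at the observed means, against the 0.11 observed, and 36 of 40 genes exceeded the value that an even spread gives. All 40 genes were found in fewer cells than an even spread would give, in both libraries: Mki67, for example, would have been in 45.4% of FGF9‐treated and 14.9% of control cells. Any unevenness between cells lowers this share, and the count over all genes is not given, so it says nothing particular to mitosis genes. Some gaps were small: Cdc25b was in 3.83% of FGF9‐treated cells against 3.87% with an even spread. Gtse1 was in 8.33% of control cells against 8.35%. The Fano factor, the variance over the mean, was higher in FGF9‐treated cells for 36 of 40 genes, for Top2a at 3.47 against 2.13 in control cells. The same count over all genes is not given. Where the spread is uneven this factor can rise with the mean, which was higher too for most members, for Top2a at 1.43 against 0.70 UMIs. Whether the libraries differed in the spread of these UMIs over cells beyond their means was not tested.

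**Figure D2:**
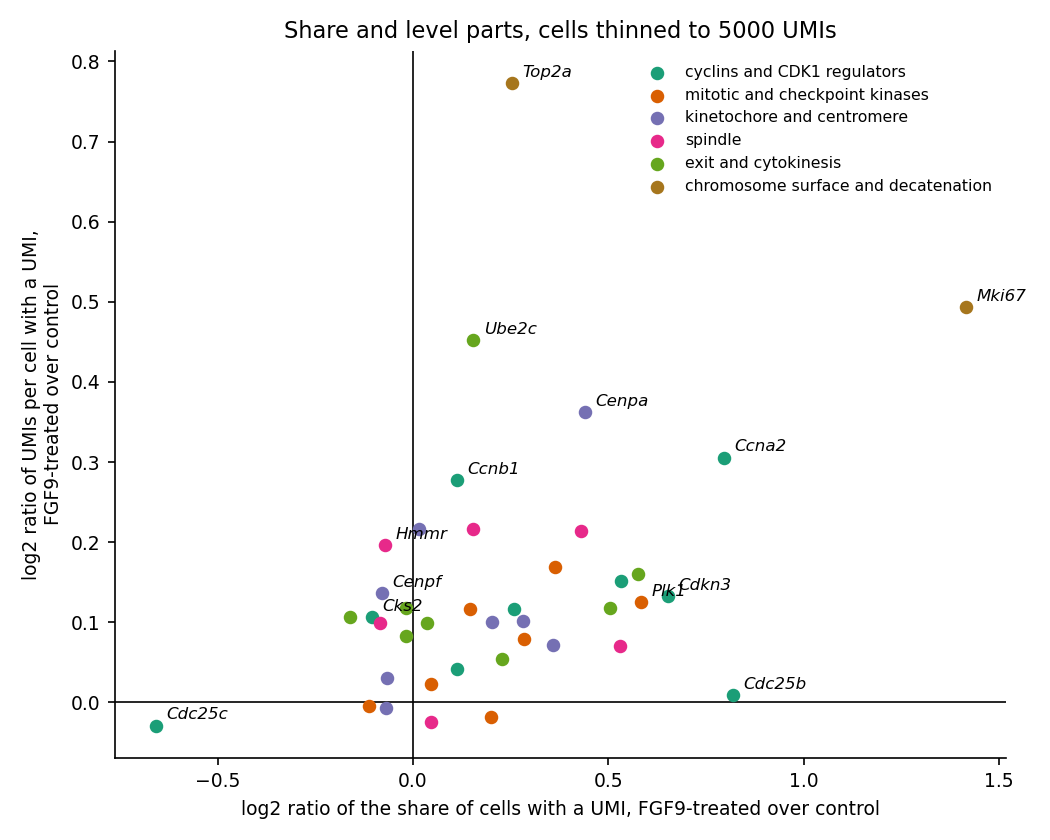
Each point is 1 of the 40 genes, coloured by role: the x axis is the log2 ratio of the share of thinned cells with a UMI, the y axis that of UMIs per cell with a UMI, both FGF9‐treated over control. Mki67 lies farthest right, Top2a highest, and Cenpf, Cks2 and Hmmr lie above 0 in level but left of 0 in share.

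The UMIs of all 40 genes were then summed in each thinned cell. The median cell was the same in both libraries, at 17 UMIs in FGF9‐treated and 17 UMIs in control cells, whereas the ends of the distribution were not. The 25th percentile was 10 UMIs in FGF9‐treated and 12 UMIs in control cells, the 75th 27 and 23, the 90th 48 and 28 and the 95th 66 and 34. The mean was 22.9 UMIs in FGF9‐treated and 19 UMIs in control cells, with an SD over cells of 19.2 and 12.6. The summed difference between the libraries therefore sat in an upper tail of cells, while low cells were also somewhat more frequent after FGF9: cells under 5 UMIs were 5.34% (4.70 to 6.03) of FGF9‐treated and 2.92% (2.43 to 3.48) of control cells. The limit of 40 UMIs used next was chosen after the distribution was seen. At least 40 UMIs were found in 644 FGF9‐treated cells, 14.3% (13.3 to 15.3), and in 154 control cells, 3.72% (3.16 to 4.34). These cells held 38.4% of the member UMIs in the FGF9‐treated and 13.3% in the control library. At the far end the libraries came closer, with 2.57% of FGF9‐treated and 1.01% of control cells at 80 UMIs or more and 99th percentiles of 95 and 80.2 UMIs.

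**Figure D3:**
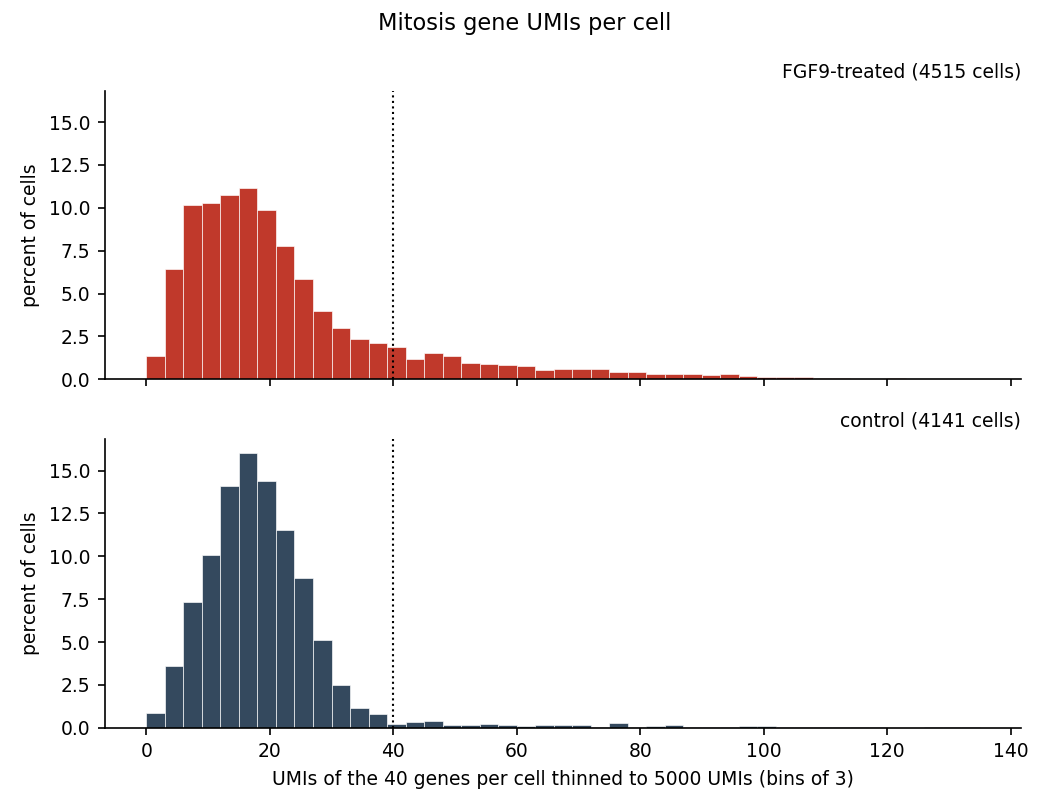
Percent of cells (y axis) by the summed UMIs of the 40 genes per cell thinned to 5000 UMIs (x axis, bins of 3), for FGF9‐treated cells above and control cells below. Both medians are 17 UMIs, but control cells peak near this value whereas the bulk of FGF9‐treated cells is broader and flatter. Right of the dotted line at 40 UMIs lie 14.3% of FGF9‐treated and 3.72% of control cells.

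Sorting cells by a sum and then reading the same sum would be circular, so the genes were divided by their place in the list into set A and set B of 20 genes each: cells were sorted by one set and read in the other. With at least 10 thinned UMIs of set A, called mitosis-high, there were 48.0% (46.6 to 49.5) FGF9‐treated and 44.0% (42.5 to 45.5) control cells, close to a median split. Set B stood at 15.8 UMIs per cell in FGF9‐treated and 11.6 in control mitosis-high cells, a log2 ratio of 0.44 (0.42 to 0.47). In the cells under 10 UMIs it stood lower in the FGF9‐treated library, at 5.95 against 7.10 UMIs (-0.25, -0.29 to -0.22). The level inside the sorted cells depended on the limit. At 20 UMIs of set A the shares were 16.3% of FGF9‐treated and 5.55% of control cells, and the level ratio was 0.089. At 30 UMIs, a limit added after the data were seen, the shares were 7.97% (7.20 to 8.80) and 2.41% (1.97 to 2.93), and set B stood at 31.3 UMIs in FGF9‐treated and 35.1 UMIs in control cells, a ratio of -0.17 (-0.22 to -0.11). Sorting by set B gave 4.98% and 1.86% of cells at 30 UMIs, with 43.2 and 44.8 UMIs of set A per cell (-0.05, -0.11 to 0.002). The share of these uppermost cells was thus 3.30 times that of the control when sorted by set A and 2.68 times when sorted by set B, and their summed level was not higher in the FGF9‐treated library with either set. With no upper limit, these cells were not matched in the sorting set itself. Its mean was 41.9 UMIs in FGF9‐treated and 43.3 in control cells for set A, and 37.9 and 39.9 for set B.

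Bins between these limits, chosen after the data were seen, show where the levels parted. Set B was lower in FGF9‐treated cells with 0 to 4 (-0.32) and 5 to 9 UMIs of set A (-0.16), and higher with 10 to 19 (0.14) and 20 to 29 (0.38). Sorting by set B gave -0.16, -0.06, 0.31 and 0.15 for set A in the same bins. The signs were the same, but the bin with the largest ratio depended on the sorting set. Measured gene by gene in the uppermost bin, 31 of 40 intervals held 0. Mki67 (0.25, 0.03 to 0.47) and Bub1 (0.45, 0.07 to 0.85) were above 0. Below 0 were 7 genes: Ccnb1 (-0.45), Nusap1 (-0.42), Cdc20 (-0.42), Bub1b (-0.37), Cdca8 (-0.32), Cks2 (-0.19) and Cenpf (-0.14). Ccnb1 and Cdc20, the cyclin of mitosis and the activator of its destruction, were therefore lower per cell of this bin in the FGF9‐treated library. Over the whole library both were higher (0.51 and 0.21). The bin held only 100 control cells by set A and 77 by set B, which also had more UMIs of the sorting set. A lower level in comparable cells was not tested. Mki67 was the only gene whose interval lay above 0 in all 5 bins: with 10 to 19 UMIs of set B it stood at 0.72 UMIs per FGF9‐treated and 0.151 per control cell (2.25, 2.03 to 2.47). At 20 to 29 UMIs of set A, Top2a stood at 4.24 UMIs per FGF9‐treated and 1.89 per control cell (1.16, 0.97 to 1.36), and at 30 or more it was level, at 5.05 and 4.87 UMIs (0.05, -0.09 to 0.20). Depth and the replication genes moved with the bins. The median UMIs before thinning were 20530.5 in FGF9‐treated and 24086 in control cells of the uppermost bin of set A, against 11466 and 13760 in the lowest, and the replication genes summed to 16.6 and 15.7 UMIs in the uppermost bin and to 22.2 and 15.1 in the bin of 20 to 29. Their part in the result was not tested.

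The genes differed in how far they were confined to the uppermost cells. Each gene was read in cells sorted by the set it does not belong to, at 30 or more against 0 to 4 UMIs. Mki67 was 69.2 times higher in the uppermost than in the lowest FGF9‐treated cells, at 3.41 against 0.0493 UMIs per cell, and was found in 89.8% against 4.64% of them. Nusap1 was 34.4 times, Cdkn3 32.4 times and Ccna2 27.0 times higher. At the other end, Ckap2 was 1.85 times higher, Cdca8 3.24 times, Bub1b 3.73 times and Bub1 3.75 times. In control cells the same ends were seen, with 113 times for Mki67, 24.4 times for Nusap1, 2.15 times for Ckap2 and 3.24 times for Cdca8. The largest multiples rest on few UMIs in the lowest cells. These were 17 of Mki67 and 35 of Nusap1 in control cells, and 24 of Nusap1 and 22 of Cdkn3 in FGF9‐treated cells. Genes of set A and of set B were also read in different cells. Cenpf was found in most of the lowest cells too, in 62.6% of FGF9‐treated and 72.9% of control cells.

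The upper tail was present in thinned cells with transcripts of the SSC receptors, of progenitor and of differentiation genes. Among cells with UMIs of both Gfra1 and Ret, 43 of 477 (9.01%) FGF9‐treated and 2 of 70 (2.86%) control cells had at least 40 member UMIs, with overlapping intervals of 6.60 to 12.0 and 0.348 to 9.94. Among cells with Neurog3, a factor of progenitors, it was 31 of 279 (11.1%) and 18 of 776 (2.32%). Among cells with Kit, the receptor of differentiating spermatogonia, it was 18 of 60 (30.0%, 18.8 to 43.2) and 14 of 238 (5.88%, 3.25 to 9.67). Among cells with Stra8, a gene induced by retinoic acid, it was 17 of 115 (14.8%) and 3 of 115 (2.61%). The mean of the member UMIs was higher in FGF9‐treated cells in all 4 subsets, from a log2 ratio of 0.16 (Gfra1 and Ret) to 0.58 (Kit). The subsets overlap, and their genes differ between the libraries in abundance, so these are not the same kinds of cell in equal number.

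Genes outside the list that were most enriched in mitosis-high cells of both libraries, among 6896 genes that reached 20 CPM in either library, were Rrm2, Fbxo5, Kif15, Fam83d, Kif4, Aspm, Pclaf, Knl1, Esco2 and Kif14, ranked by the lower of the 2 libraries' ratios between cells at or above and cells under 10 UMIs of set A. Rrm2, a subunit of the enzyme that makes deoxynucleotides, was 4.69 times higher in FGF9‐treated and 2.55 times higher in control mitosis-high cells. Kif15, a spindle kinesin, was 3.01 and 2.38 times higher. Of the 19 set B members in this ranking, 15 were among its first 100.

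Barcodes outside the kept cells held fewer mitosis UMIs. Those under 2000 genes had 2366 CPM of the members in the FGF9‐treated and 1588 CPM in the control library. The 63 FGF9‐treated and 31 control barcodes past the feeder limit, with medians of 26481 and 20517 UMIs, had 2540 and 795 CPM of the members. After thinning, 9.41 and 3.16 member UMIs were found in them on average, with Mki67 in 17.5% (9.05 to 29.1) and 3.23% (0.0816 to 16.7) and Cenpf in 23.8% and 25.8%. The share in kept cells exceeded that in these feeder-rich barcodes for 37 of 40 genes in both libraries, and the exceptions were Cdk1 in FGF9‐treated cells and Cdc25b and Cdkn3 in control cells. The same count over all genes is not given, and it rests on only 63 and 31 barcodes. These barcodes also held germ cell RNA: without thinning, Dazl had a UMI in 50.8% of the FGF9‐treated and 41.9% of the control ones. Cdk1 was found in 15 of the 63 feeder-rich FGF9‐treated barcodes (23.8%) and in 23.3% of kept cells. Kept barcodes with over 2.5 times the median UMIs, which may hold doublets, numbered 123 and 76 and had 6701 and 5056 CPM. Without them the summed log2 ratio was 0.36, and the cells at 30 UMIs of set A were 7.65% of FGF9‐treated and 2.14% of control cells.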

How the data were processed

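Libraries were made by the authors with a 10x 3' v3.1 kit with a KIT antibody tag, which was not used here. The authors deposited raw UMI counts for each gene in each barcode, produced with Cell Ranger (3.1.0 in the matrix header) on mm10. They held 5959 barcodes for FGF9‐treated and 5312 for control cells, before the limits on genes, mitochondrial UMIs and feeder UMIs used here. The labels name Seurat 3.1 for later steps. Depth was 67068085 UMIs in FGF9‐treated and 67689739 UMIs in control kept cells.

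The members and the lists were chosen with earlier results of these data known. UMIs were summed over kept cells and divided by the library total, and log2 ratios, FGF9‐treated over control, carry exact conditional binomial 95% intervals. Levels have exact Poisson and shares Clopper-Pearson intervals. With 1 library per group no test was possible. Cells were thinned without replacement to 5000 UMIs, which left out 22 FGF9‐treated and 16 control cells. Doublets were not called, and barcodes over 2.5 times the median UMIs were left out as an alternative. Within each role group the 2 highest and 2 lowest measured genes are given in full, and from the other mitosis genes the 3 highest and lowest; other genes were named after their values were seen. For promoters, the first RefSeq window listed per gene was used, and gene positions come from GENCODE vM21 of the same build. Alternatives covered the cell filters, the scaling (TMM of edgeR 4.0.16 and size factors of DESeq2 1.42.0), the thinning depth, the limits and the sorting set. Python 3.11.15 with numpy and scipy was used, and the intervals and thinning were tested on simulated data.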

Additional observations from a re-analysis of the deposited data

How the results depend on the processing

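The summed log2 ratio of the 40 genes stayed above 0 under all 13 alternatives run, from 0.27 to 0.43. It was 0.38 with at least 3000 genes, 0.40 with at most 10% mitochondrial UMIs, 0.36 without the limit on Vim plus S100a6, 0.36 without barcodes over 2.5 times the median UMIs, 0.41 with TMM, 0.39 with DESeq2 size factors, 0.27 as a mean over cells of per-cell CPM, and, chosen after seeing the data, 0.30 without Mki67 and Top2a and 0.43 without Cenpf. The genes at 0.5 or more numbered 13 to 18. The 6 role groups stayed above 0 in all 66 group values, from 0.13 to 1.35. Single genes near 0 changed sign: Cdca8 to 0.001 with TMM, and Ndc80 to -0.08, Prc1 to -0.10 and Gtse1 to -0.03 as a mean over cells.

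The share of mitosis-high cells follows its limit. It was 78.8% of FGF9‐treated and 82.3% of control cells at 5 UMIs, 16.3% and 5.55% at 20 UMIs, 41.5% and 36.9% with set B, and 45.2% and 39.2% without thinning. The control share was 42.2% with 8000 UMIs and a limit of 16 and 42.2% without barcodes over 2.5 times the median UMIs. With limits chosen after seeing the data it was 7.97% and 2.41% at 30 UMIs, 13.3% and 3.79% at 20 UMIs of set B, 4.98% and 1.86% at 30 UMIs of set B, and 7.65% and 2.14% at 30 UMIs without barcodes over 2.5 times the median. The order of the libraries thus turned only at 5 UMIs. The level ratio inside these cells was 0.47 with at most 10% mitochondrial UMIs, 0.33 at 5 UMIs, 0.089 at 20 UMIs and 0.56 with set B. It fell below 0 at 30 UMIs (-0.17), at 20 and 30 UMIs of set B (-0.063 and -0.054) and at 30 UMIs without barcodes over 2.5 times the median (-0.21). Each alternative set of cells was thinned by a new draw, and its part in these values was not tested. No paired analysis was possible because each group held 1 library. Genes under 10 CPM and shares of few positive cells, such as Cdc25b, are limited by depth.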
